A study of Mus musculus with 8 samples.

Results

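Endothelial genes of the embryonic lung were followed in 8 mouse embryos at embryonic day 14.5, with 1 array of whole-lung RNA per embryo. A list of 40 genes of blood and lymphatic endothelium was taken, chosen by name but with earlier results of these data known. Each gene was read from the probe set that carried its symbol alone and had the highest mean over the 8 arrays. Of the 40 genes 39 were measured in this way, out of 22180 genes in all, and each of the 39 had 1 such probe set. Rasip1 had none and was not analysed here. The 39 were sorted into 25 pan-endothelial and blood vessel genes, 4 arterial, 2 venous, 4 capillary and 4 lymphatic genes.

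The 4 control embryos carried the Shh-cre driver, and the 4 mutant embryos carried Shh-cre together with 2 floxed alleles of Ezh2, which encodes the catalytic subunit of Polycomb repressive complex 2, a writer of a repressive histone mark. All were on a mixed C57BL/6 x 129S6 background. Shh-cre is active in the lung epithelium and not, by its design, in vessels, so in these embryos the endothelium is a neighbour of the cells meant to lose Ezh2. Controls 1 and 2 came from litter 1, controls 3 and 4 from litter 2, mutants 1 and 2 from litter 3, and mutants 3 and 4 from litter 4. Each of these litters gave embryos of 1 genotype only, so litter could not be held constant between genotypes. Controls 1 and 2 and mutant 3 had low values of Xist, the RNA that silences an X chromosome in females, and high values of Y-linked genes, so among controls sex and litter coincide.

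Values are log2 expression after RMA, an array method that corrects background, makes arrays alike and summarizes probes. Array medians lay between 7.05 and 7.12. In whole lung Ezh2 differed by −0.09 ± 0.05 on the log2 scale, mutant minus control (SE, 4 embryos per group). The groups were separate but the difference did not pass the test, so it is a weak check of the labels. A level was called above background when its mean over the 8 arrays exceeded 6.82, the 95th percentile of the means of 1105 olfactory receptor genes, which were taken as not expressed in lung. By this measure 38 of the 39 endothelial genes lay above background, as did the epithelial genes Nkx2-1 and Epcam and the mesenchymal gene Col1a1. The exception was Car4, at a mean of 6.67. The leukocyte gene Ptprc also lay below it, at 6.31. In whole-lung RNA fewer cells of a type and less RNA per cell cannot be told apart.

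The lung's vessels form from a plexus of endothelial cells that grows around the branching airways, whose epithelium is a source of vascular endothelial growth factor (VEGF). Endothelial cells read VEGF through the receptors encoded by Kdr, Flt1 and Flt4, and angiopoietins through the receptor encoded by Tek. Their identity is held by ETS transcription factors such as ERG and FLI1, by the SOX7, SOX17 and SOX18 group and by GATA and TAL1 factors. Arteries are marked by ephrin B2 and veins by its receptor EPHB4, and lymphatic vessels bud from veins under the control of PROX1.

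The binding words of these factors are short, and the sequence around the start of 4 of the genes shows how they fall. RefSeq promoters of build GRCm38.p6, reaching from 250 bases before to 50 bases after a gene's start, were found for 24 of the 39 genes. Tek is shown as an angiopoietin receptor gene with separated groups, Emcn as the pan-endothelial gene with the most negative change, Apln as the gene with the most negative change of all, and Car4 as a marker of mature capillaries that lay below background. Each is written 5′ to 3′ on the gene's strand, and capitals mark matches on either strand to the ETS words CCGGAAG and CAGGAAG, the word ACAGGAA of joint FOX and ETS sites, the SOX word AACAAT and the GATA word AGATAA. The words CAGGAAG and ACAGGAA can overlap each other. The windows are chr4:94739039-94739338 on the plus strand for Tek, chr3:137340828-137341127 on the plus strand for Emcn, chrX:48034804-48035103 on the minus strand for Apln and chr11:84957504-84957803 on the plus strand for Car4.
Tek: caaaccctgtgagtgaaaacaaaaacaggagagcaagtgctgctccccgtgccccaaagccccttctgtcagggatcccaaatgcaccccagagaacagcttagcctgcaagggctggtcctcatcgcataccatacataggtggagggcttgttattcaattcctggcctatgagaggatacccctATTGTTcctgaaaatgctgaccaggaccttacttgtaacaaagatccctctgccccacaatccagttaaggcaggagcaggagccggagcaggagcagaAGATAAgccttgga
Emcn: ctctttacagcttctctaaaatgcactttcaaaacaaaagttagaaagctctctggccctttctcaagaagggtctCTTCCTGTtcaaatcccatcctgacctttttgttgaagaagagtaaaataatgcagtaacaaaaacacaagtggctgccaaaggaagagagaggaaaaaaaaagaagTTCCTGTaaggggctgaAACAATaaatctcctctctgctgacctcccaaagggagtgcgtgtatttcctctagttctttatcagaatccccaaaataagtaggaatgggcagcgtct
Apln: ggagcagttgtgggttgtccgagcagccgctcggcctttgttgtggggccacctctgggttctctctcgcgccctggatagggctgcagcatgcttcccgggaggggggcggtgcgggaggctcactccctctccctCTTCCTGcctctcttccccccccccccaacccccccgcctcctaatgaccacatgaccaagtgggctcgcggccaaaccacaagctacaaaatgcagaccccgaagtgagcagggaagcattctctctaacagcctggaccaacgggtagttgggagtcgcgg
Car4: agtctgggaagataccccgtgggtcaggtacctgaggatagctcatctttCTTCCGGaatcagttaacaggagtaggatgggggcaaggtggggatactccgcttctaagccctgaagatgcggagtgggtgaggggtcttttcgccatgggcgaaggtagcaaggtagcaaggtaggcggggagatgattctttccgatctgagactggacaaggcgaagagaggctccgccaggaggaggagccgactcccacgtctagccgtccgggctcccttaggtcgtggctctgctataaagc

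The Tek window held a SOX word 63 bases before the start and a GATA word within the transcribed part, and no ETS word of those searched. Emcn held a CAGGAAG and an ACAGGAA word that overlap, 1 further ACAGGAA word 67 bases before the start and a SOX word 50 bases before it. Apln and Car4 held 1 ETS word each, 113 and 200 bases before the start. Over the 30 promoters of the 24 genes, 23.3% held CAGGAAG, against 13.3% of all 32851 promoters of the table, and 13.3% held ACAGGAA, against 8.67%. CCGGAAG was held by 3.33% against 8.86%, the SOX word by 10% against 10.7% and the GATA word by 10% against 11.2%. CACCC, a word of KLF factors, was held by 76.7% against 57.5%. These are matches of letters in a short window, and they do not show that a factor binds there.

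None of the 39 endothelial genes passed the test between genotypes. Over all genes 0.604% were called higher and 0.248% lower in mutants (limma, Benjamini-Hochberg adjusted p under 0.05). Vwf came nearest (limma, Benjamini-Hochberg adjusted p = 0.176). The differences were small. Among the 38 genes above background the log2 changes ran from −0.19 for Apln, or 1.14-fold lower, to 0.24 for Pdpn. Car4, below background, had a log2 change of 0.27 between dim signals. The 95% intervals of all 39 changes lay between −0.38 and 0.48 on the log2 scale, the upper of these being that of the dim Car4, and those of 20 genes lay within 0.25 of 0.

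More of these small differences were positive than negative. Mutants had the higher mean in 30 of the 39 genes and the lower in 9, against 52.9% positive over all genes and 46.7% over the 13798 genes above background. The median log2 change was 0.067, against 0.0068 over all genes and −0.0077 over the genes above background. At an unadjusted p under 0.05, 7 endothelial genes were higher, Vwf, Aplnr, Eng, Car4, Pdpn, Tek and Nos3, against 5.61% of all genes, and 1 was lower, Apln, against 4.26%. All 4 mutants lay above all 4 controls in 6 genes, Vwf, Aplnr, Eng, Tek, Cdh5 and Fli1, against 4.48% of all genes. Mutants lay wholly below controls in 0 of the 39, against 3.60%. Genes of 1 cell type can vary together with the share of that type in a lung, so they are not independent counts.

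**Figure D1:**
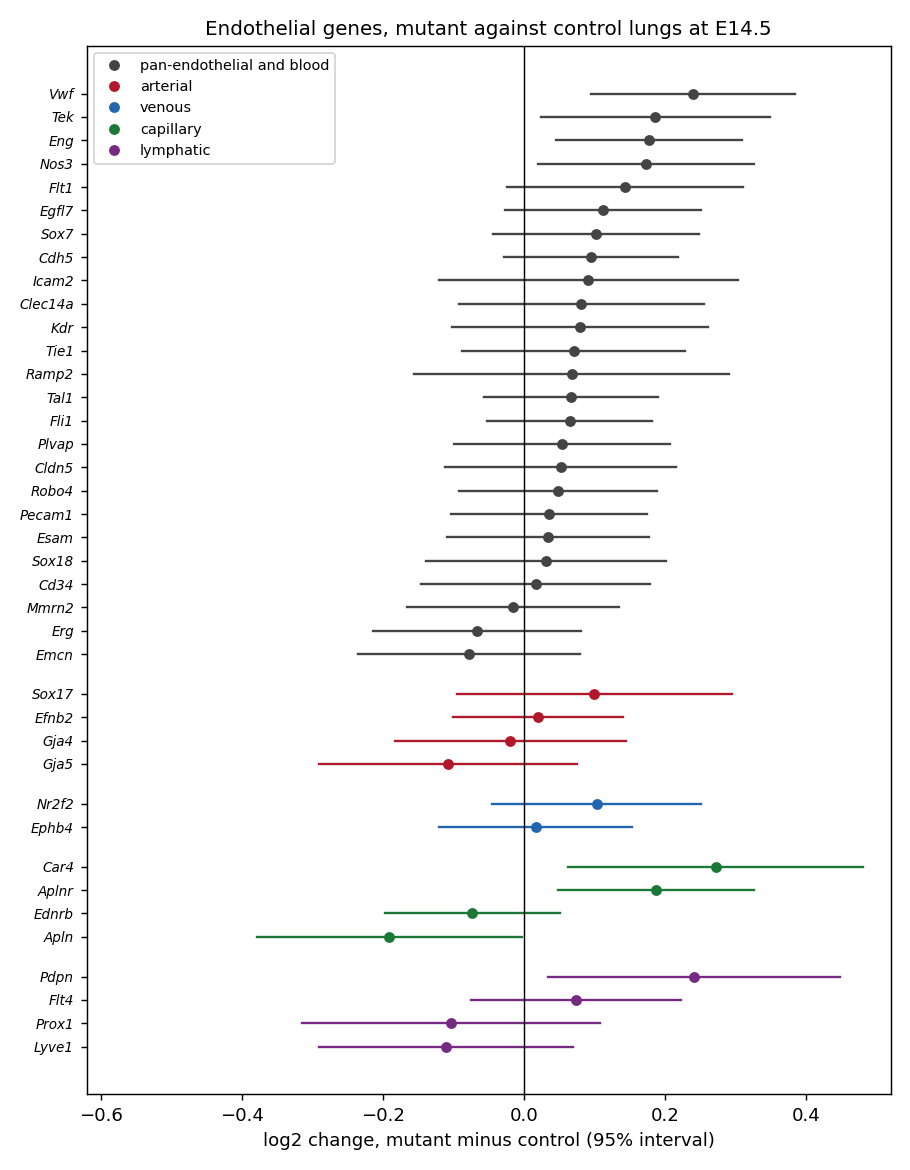
Log2 change of each measured endothelial gene, mutant minus control (points), with its 95% interval from limma (lines), on the x axis, and the genes, coloured by vessel class, on the y axis. Most pan-endothelial points lie to the right of 0, from −0.08 for Emcn to 0.24 for Vwf, while the arterial and lymphatic points lie on both sides.

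These differences depended on which control litter was the base. Against litter 2 alone the mutants were higher in 19 of 39 genes, with a median difference of −0.0076, beside 51.1% of all genes and 41.9% of the genes above background, whose median was −0.026. Against litter 1 alone they were higher in 33 of 39, with a median of 0.106, beside 53.7% of all genes and 52.8% of those above background. The control litters also differed from each other: litter 2 lay above litter 1 in 33 of 39 genes, with a median difference of 0.119, against 52.7% of all genes with a median of 0.0086 and 61.1% of the genes above background with a median of 0.034. Control 2 was the lowest of the 8 embryos in 13 of the 39 genes and control 1 in 9, while mutant 3 was the highest in 15 and control 3 in 10. Among the 5 embryos with a high Xist value, 2 controls and 3 mutants, the change was positive in 19 of 39 genes with a median of −0.012. Among the 3 with a low value it was positive in 30 of 39 with a median of 0.126, where mutant 3 alone stood for the mutants. Without control 2 the median over the 39 genes was 0.037, and without mutant 3 it was 0.042.

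**Figure D2:**
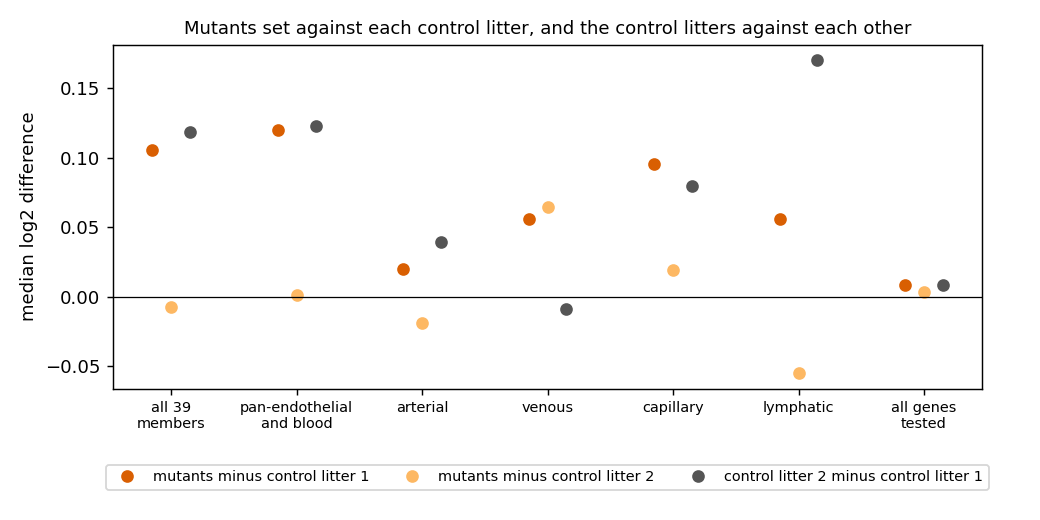
Median log2 difference (y axis) over the 39 endothelial genes, over each vessel class and over all genes (x axis), for mutants minus control litter 1, mutants minus control litter 2, and control litter 2 minus control litter 1 (colours). The comparisons share samples, and over the 39 genes they read 0.106, −0.0076 and 0.119, while over all genes they read 0.0082, 0.0033 and 0.0086.

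The 25 pan-endothelial and blood genes held 22 positive and 3 negative differences, with a median log2 change of 0.068. The median of these genes, each taken relative to its control mean, was −0.076, −0.050, 0.043 and 0.045 in controls 1 to 4 and 0.050, 0.032, 0.115 and 0.087 in mutants 1 to 4. The mutants of litter 3 thus overlapped the controls of litter 2, and only litter 1 stood below all mutants. Against litter 2 alone, 13 of the 25 genes were higher in mutants, with a median difference of 0.0013.

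**Figure D3:**
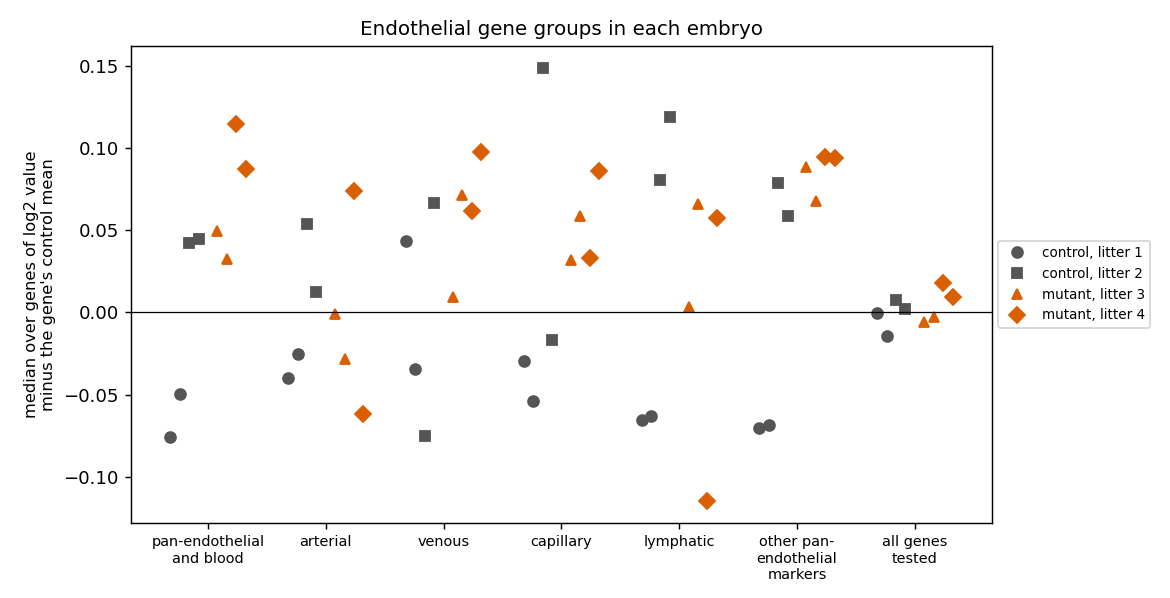
Median over the genes of each class (x axis) of the log2 value minus the gene's control mean (y axis), with 1 point per embryo, grey for controls and orange for mutants, and symbols for the 4 litters. In the pan-endothelial class controls 1 and 2 lie at −0.076 and −0.050 and the other 6 embryos, controls 3 and 4 among them, between 0.032 and 0.115. The genotypes overlap in this class and in the arterial, venous, capillary and lymphatic classes.

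Among receptors, Tek, which encodes the angiopoietin receptor TIE2, had log2 values of 10.25, 10.22, 10.44 and 10.50 in controls 1 to 4 and 10.58, 10.55, 10.52 and 10.50 in mutants 1 to 4. Mutants lay above controls, but control 4 and mutant 4 nearly met, and the controls of litter 1 stood apart below. Mutants differed from controls by 0.19 ± 0.07 on the log2 scale (SE, 4 embryos per group; limma, Benjamini-Hochberg adjusted p = 0.431). Against litter 1 the difference was 0.31, and against litter 2 it was 0.07. Tie1, the partner of TIE2, had a log2 change of 0.07.

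Eng, which encodes endoglin, a co-receptor for BMP9 on endothelium, had log2 values of 10.86, 10.87, 10.92 and 11.01 in controls 1 to 4 and 11.04, 11.07, 11.15 and 11.12 in mutants 1 to 4. The groups were separate, with control 4 nearest to the mutants. Between genotypes the log2 change was 0.18 ± 0.06 (SE, 4 embryos per group; limma, Benjamini-Hochberg adjusted p = 0.325). The VEGF receptor genes had smaller log2 changes, 0.08 for Kdr, the main signalling receptor, and 0.14 for Flt1, which binds VEGF with little signalling. Both had overlapping groups.

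Vwf, the gene of von Willebrand factor, a clotting protein stored in endothelial cells, had log2 values of 7.81, 7.84, 7.85 and 7.73 in controls 1 to 4 and 8.05, 7.97, 8.16 and 8.003 in mutants 1 to 4. The groups were separate and all mutants were higher than both control litters. Its log2 change was 0.24 ± 0.07 (SE, 4 embryos per group; limma, Benjamini-Hochberg adjusted p = 0.176). With the Xist level as a covariate Vwf alone of the 39 genes passed, at a log2 change of 0.26 (limma, Benjamini-Hochberg adjusted p = 0.0272). That fit called more genes of all kinds, 361 of 22180 higher and 313 lower, against 134 and 55 without the covariate. Over the 26 alternatives the change of Vwf ranged from 0.20 to 0.28, though several of these cannot change it. Megakaryocytes also express Vwf. Of 9 megakaryocyte and platelet genes 6 were positive, against 52.9% of all genes, with a median log2 change of 0.03. Their median per embryo ranged from −0.114 to 0.111 in controls and from −0.047 to 0.114 in mutants. Itga2b had 0.14 and Clec1b, below background at a mean of 5.71, had 0.16, and neither passed. The part of megakaryocytes in the Vwf value was not tested.

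Nos3, the gene of endothelial nitric oxide synthase, had log2 values of 8.76, 8.65, 8.74 and 8.71 in controls 1 to 4 and 8.74, 8.87, 9.01 and 8.93 in mutants 1 to 4. Mutant 1 lay within the controls and the mutants of litter 4 were the highest. The log2 change was 0.17 ± 0.07 (SE, 4 embryos per group), which did not pass (limma, Benjamini-Hochberg adjusted p = 0.441).

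**Figure D4:**
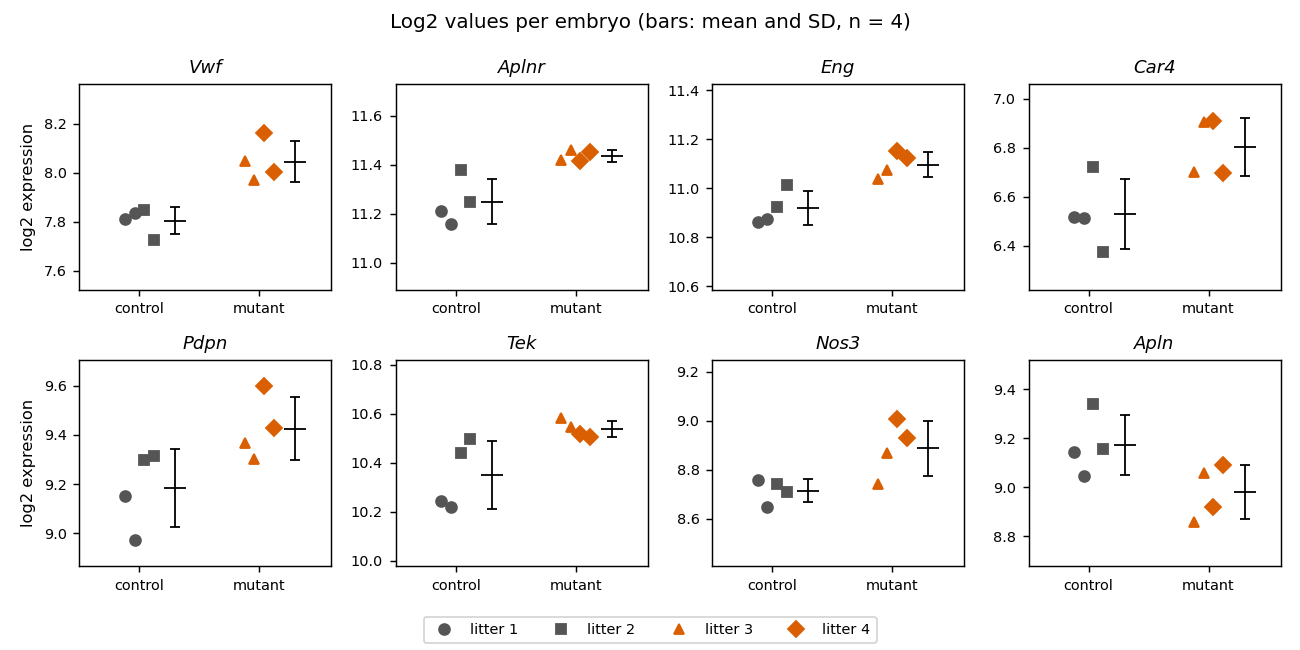
Log2 expression (y axis) in each of the 8 embryos for the 8 endothelial genes with an unadjusted p under 0.05, ordered by p, with a symbol for each litter, grey for controls and orange for mutants, and bars for the mean and SD of 4 embryos. Every panel spans the same range of log2 units; the groups do not overlap in Vwf, Aplnr, Eng and Tek, and in Tek, Eng, Aplnr, Pdpn and Apln both controls of litter 1 lie below both of litter 2.

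Genes of the junctions between endothelial cells differed little. Cdh5, the gene of VE-cadherin, had log2 values of 12.21, 12.24, 12.19 and 12.32 in controls 1 to 4 and 12.32, 12.34, 12.35 and 12.32 in mutants 1 to 4, a log2 change of 0.10 ± 0.06 (SE, 4 embryos per group); the groups were separate, but control 4 nearly met the lowest mutant. Pecam1, the adhesion molecule also known as CD31, had a log2 change of 0.04, Cldn5, the claudin of endothelial tight junctions, 0.05, Esam 0.03 and Icam2 0.09. None of these 5 passed.

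Transcription factors of endothelial identity differed by small amounts in both directions. Fli1 had log2 values of 10.95, 10.998, 11.04 and 11.03 in controls 1 to 4 and 11.07, 11.08, 11.05 and 11.08 in mutants 1 to 4, with a log2 change of 0.07 ± 0.05 (SE, 4 embryos per group). Its groups were separate, by a gap smaller than the spread among controls. Erg, the other ETS gene of the list, had −0.07 with overlapping groups. Sox7 and Sox18 had log2 changes of 0.10 and 0.03, and Tal1, which also acts in blood cells, had 0.07. None passed.

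The remaining genes of this class were surface and matrix genes, all with overlapping groups. Egfl7, a secreted protein of the vessel matrix, had a log2 change of 0.11, Clec14a 0.08, Ramp2, the partner of the adrenomedullin receptor, 0.07, Plvap, which forms the diaphragms of endothelial pores, 0.05, and Robo4 0.05. The sialomucin genes Cd34 and Emcn had 0.02 and −0.08, and Mmrn2, a matrix protein of vessels, had −0.02. None passed.

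Arterial genes were evenly divided. Of the 4 genes 2 were positive and 2 negative, with a median log2 change of 0.00043. Efnb2, the gene of ephrin B2, had log2 values of 10.02, 10.02, 10.06 and 10.11 in controls 1 to 4 and 10.06, 10.05, 10.12 and 10.06 in mutants 1 to 4. Its log2 change was 0.02 ± 0.05 (SE, 4 embryos per group), and the groups overlapped in part, with controls 1 and 2 below all mutants and mutant 3 above all controls. Ephrin B2 is also made outside arteries.

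Gja5, which encodes connexin 40 of arterial gap junctions, had log2 values of 8.09, 7.93, 7.85 and 7.91 in controls 1 to 4 and 7.94, 7.67, 7.93 and 7.81 in mutants 1 to 4. Control 1 was the highest and mutant 2 the lowest, and the others overlapped. Its log2 change was −0.11 ± 0.08 (SE, 4 embryos per group). Gja4, which encodes connexin 37, had 8.11, 8.19, 8.27 and 8.06 in controls 1 to 4 and 8.17, 8.12, 8.23 and 8.03 in mutants 1 to 4, again without separation, and a log2 change of −0.02 ± 0.07 (SE, 4 embryos per group).

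Sox17, a transcription factor of arterial identity, had log2 values of 8.76, 8.89, 9.04 and 9.06 in controls 1 to 4 and 8.94, 8.92, 9.17 and 9.14 in mutants 1 to 4. These values sorted by litter within each genotype, with litter 1 lowest and litter 4 highest, and the log2 change was 0.10 ± 0.09 (SE, 4 embryos per group). All 4 arterial genes were slightly lower in mutants than in litter 2, by 0.01 to 0.04 on the log2 scale.

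The 2 venous genes were both positive. Ephb4, the receptor for ephrin B2 on veins, had log2 values of 10.29, 10.28, 10.22 and 10.42 in controls 1 to 4 and 10.30, 10.30, 10.36 and 10.31 in mutants 1 to 4, with a log2 change of 0.02 ± 0.06 (SE, 4 embryos per group). Nr2f2, which encodes the venous regulator COUP-TFII and is also strong in lung mesenchyme, had 10.75, 10.61, 10.58 and 10.67 in controls 1 to 4 and 10.67, 10.79, 10.72 and 10.84 in mutants 1 to 4. The groups overlapped in both genes, and the log2 change of Nr2f2 was 0.10 ± 0.07 (SE, 4 embryos per group).

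Of the 4 capillary genes 2 were positive and 2 negative, and Car4 lay below background. Aplnr, which encodes the apelin receptor, had log2 values of 11.21, 11.16, 11.38 and 11.25 in controls 1 to 4 and 11.42, 11.46, 11.41 and 11.45 in mutants 1 to 4. The groups were separate, with the 4 mutants close together and control 3 nearest below them. Mutants differed from controls by 0.19 ± 0.06 on the log2 scale (SE, 4 embryos per group; limma, Benjamini-Hochberg adjusted p = 0.322). Over the 26 alternatives the difference ran from 0.12 to 0.25, though several of these cannot change it.

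Apln, the gene of the ligand apelin, which sprouting tip cells secrete, had log2 values of 9.14, 9.05, 9.34 and 9.16 in controls 1 to 4 and 8.86, 9.06, 8.92 and 9.09 in mutants 1 to 4. Mutants 2 and 4 lay above control 2, so the groups overlapped. Between genotypes the log2 change was −0.19 ± 0.09 (SE, 4 embryos per group; limma, Benjamini-Hochberg adjusted p = 0.503). Over the 26 alternatives it ran from −0.27 to −0.11, though here too several cannot change it. Receptor and ligand therefore differed in sign, and neither passed.

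Car4, which encodes a carbonic anhydrase that marks the gas-exchange capillaries of the mature lung, had log2 values of 6.52, 6.51, 6.72 and 6.37 in controls 1 to 4 and 6.70, 6.90, 6.91 and 6.70 in mutants 1 to 4. Control 3 lay between the mutants, and all other controls lay below them. The log2 change was 0.27 ± 0.09 (SE, 4 embryos per group; limma, Benjamini-Hochberg adjusted p = 0.349). Its mean lies below the background level, so this difference is between dim signals, and without Car4 the median of the capillary class was −0.07.

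Ednrb, which encodes the endothelin receptor B of the same mature capillaries and is also used by neural crest and mesenchyme, had log2 values of 11.48, 11.51, 11.56 and 11.49 in controls 1 to 4 and 11.41, 11.42, 11.41 and 11.52 in mutants 1 to 4. Mutants 1, 2 and 3 lay below all controls and mutant 4 within them. Mutants differed from controls by −0.07 ± 0.06 on the log2 scale (SE, 4 embryos per group).

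**Figure D5:**
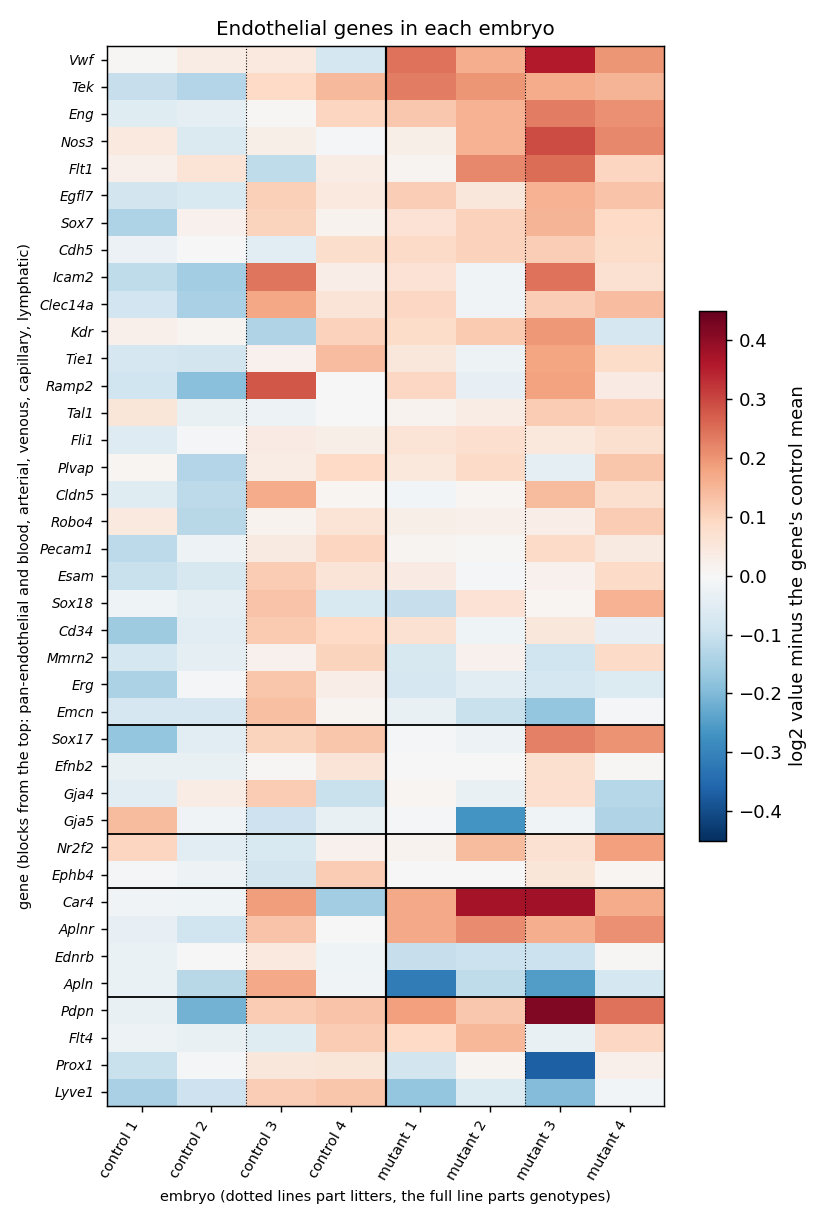
Log2 value of each endothelial gene (y axis, in blocks by class and ordered by change within a block) in each embryo (x axis) minus the gene's control mean, on a colour scale from blue (lower) to red (higher). In the top block most cells are blue for controls 1 and 2 and red for controls 3 and 4, and mutant 3 is the highest embryo in 15 of the 39 genes.

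Lymphatic genes also went both ways, with 2 positive, 2 negative and a median log2 change of −0.015. Prox1, the regulator of lymphatic fate, had log2 values of 6.88, 6.97, 7.03 and 7.03 in controls 1 to 4 and 6.89, 6.99, 6.61 and 6.999 in mutants 1 to 4. Mutant 3 stood lowest and the others overlapped the controls. Between genotypes the log2 change was −0.10 ± 0.10 (SE, 4 embryos per group), and the gene lies just above the background level.

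Lyve1, the hyaluronan receptor of lymphatic endothelium, which macrophages also carry, had log2 values of 10.57, 10.62, 10.83 and 10.84 in controls 1 to 4 and 10.54, 10.66, 10.52 and 10.71 in mutants 1 to 4. The controls of litter 2 were the highest, while litter 1 lay among the mutants. The log2 change was −0.11 ± 0.08 (SE, 4 embryos per group). Against litter 2 the difference was −0.23 and against litter 1 it was 0.01.

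Flt4, which encodes the VEGF-C receptor VEGFR3, had log2 values of 8.66, 8.65, 8.63 and 8.80 in controls 1 to 4 and 8.77, 8.83, 8.65 and 8.77 in mutants 1 to 4, with a log2 change of 0.07 ± 0.07 (SE, 4 embryos per group). At this stage Flt4 is also made by blood vessels. Pdpn, which encodes podoplanin, had 9.15, 8.97, 9.30 and 9.31 in controls 1 to 4 and 9.37, 9.30, 9.60 and 9.43 in mutants 1 to 4. Mutant 2 lay within litter 2 and the other mutants above all controls.

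The log2 change of Pdpn was 0.24 ± 0.09 (SE, 4 embryos per group; limma, Benjamini-Hochberg adjusted p = 0.426). Podoplanin is made by lung epithelium and mesothelium as well as by lymphatics. Beside it, 10 of 15 epithelial genes had a negative change, with a median of −0.04, and 6 of 10 mesothelial genes a positive one, with a median of 0.01. The shares over all genes were 52.9% positive and 0.604% called higher. Of the mesothelial genes Upk1b, the gene of a uroplakin, rose by 0.46 on the log2 scale (limma, Benjamini-Hochberg adjusted p = 0.0102), passing in 20 of 26 alternatives. The call was lost without control 4 or mutant 4 (limma, adjusted p = 0.0515 and 0.0517) and with littermates averaged (0.0983). It was also lost without litter 2 or litter 4 (limma, adjusted p = 0.0634 and 0.0724) and with only the embryos of high Xist level (0.0754). The part of these cells in the Pdpn value was not tested.

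Of 31 measured pan-endothelial markers outside the 39, 25 were positive, with a median log2 change of 0.079, against 52.9% of all genes. One marker, 1 of the 31, passed, against 0.604% of all genes called higher. The per-embryo medians of this list were −0.071 to 0.079 in controls and 0.068 to 0.095 in mutants, and against litter 2 alone 18 of the 31 were higher in mutants. The gene that passed was Adgrf5, an adhesion receptor that lung endothelium shares with alveolar epithelium. It had log2 values of 8.86, 8.88, 8.99 and 9.28 in controls 1 to 4 and 9.59, 9.45, 9.67 and 9.4997 in mutants 1 to 4.

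The mutants lay wholly above the controls for Adgrf5, and it rose by 0.55 ± 0.10 (SE, 4 embryos per group) on the log2 scale (limma, Benjamini-Hochberg adjusted p = 0.0298). The call was lost without control 1, 2 or 3 or mutant 1, 3 or 4, the Benjamini-Hochberg adjusted p from limma being up to 0.0829, and with littermates averaged into 1 value per litter (0.083). It was also lost without litter 1, 3 or 4, and Adgrf5 passed in 14 of 26 alternatives. Thbd, the gene of thrombomodulin, had a log2 change of 0.35 and Cyyr1 of 0.30, with separate groups and no call.

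In the VEGF and angiopoietin list 11 of 15 genes were positive, with a median log2 change of 0.057, and 0 passed. The share positive over all genes was 52.9%. Vegfa, the main VEGF ligand, had 0.06, Angpt1, the activating ligand of TIE2, 0.06, Angpt2, its context-dependent partner, 0.17 and Pgf −0.16. The VEGF co-receptors Nrp1 and Nrp2 had 0.14 and −0.15. In the BMP9 and ALK1 list, the pathway of endoglin, 9 of 13 were positive and 0 passed, with the targets Id1 and Tmem100 at 0.33 each and overlapping groups. Controls 1 and 2 were the lowest embryos in both genes, at 8.54 and 8.55 for Id1 and 7.88 and 8.29 for Tmem100. Controls 3 and 4 had 9.26 and 8.78 for Id1 and 8.915 and 8.44 for Tmem100, beside mutant means of 9.11 and 8.71. Over the 26 alternatives the change ran from 0.09 to 0.56 for Id1 and from −0.04 to 0.63 for Tmem100. The per-embryo median of the BMP9 and ALK1 list was −0.035 to 0.039 in controls and 0.083 to 0.122 in mutants, so these ranges did not overlap. The ranges were also separate in the cardiac list and, with mutants lower, in the smooth muscle list, both given below. In every other list of related genes they overlapped. Within the BMP9 and ALK1 list mutants lay wholly above controls in 2 of 13 genes, against 4.48% of all genes. How often such medians separate by litter alone was not tested.

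In the Notch and arterial list 12 of 18 genes were positive and Jag2 passed, against 52.9% positive and 0.604% called higher over all genes. Jag2, a Notch ligand that epithelium also makes, had log2 values of 7.96, 8.06, 8.12 and 8.25 in controls 1 to 4 and 8.50, 8.55, 8.62 and 8.40 in mutants 1 to 4. It rose by 0.42 ± 0.08 (SE, 4 embryos per group) on the log2 scale (limma, Benjamini-Hochberg adjusted p = 0.0336). Leaving out any 1 of the 8 embryos ended this call, the Benjamini-Hochberg adjusted p from limma being 0.0502 to 0.0833, as did averaging littermates (0.113). So did leaving out litter 1, 3 or 4, and Jag2 passed in 10 of 26 alternatives. The endothelial Notch genes Dll4 and Notch4 had log2 changes of −0.05 and 0.21, and Unc5b, a netrin receptor of arteries and tip cells, had 0.30. Among 16 endothelial transcription factors outside the 39, 12 were positive and 0 passed, with Hhex at 0.33 and Ets2 at 0.18.

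Of 13 other lymphatic genes 11 were positive, with a median log2 change of 0.138, and 1 passed. Over all genes 52.9% were positive and 0.604% were called higher. Vegfc, Nrp2, Angpt2, Foxc2 and Gata2 of this list also stand in lists given above. Adamts3, the protease that, with CCBE1, activates the lymphatic growth factor VEGF-C, had log2 values of 8.15, 8.08, 8.05 and 8.21 in controls 1 to 4 and 8.57, 8.64, 8.68 and 8.50 in mutants 1 to 4. All mutants lay clearly above all controls. It rose by 0.47 ± 0.07 (SE, 4 embryos per group) on the log2 scale (limma, Benjamini-Hochberg adjusted p = 0.00704), and it passed in 25 of 26 alternatives, with littermates averaged among them (limma, adjusted p = 0.0431), but not with only the embryos of high Xist level (limma, adjusted p = 0.0644). Adamts3 and Ccbe1 encode secreted proteins and can be made outside lymphatic cells. Ccbe1 had a log2 change of 0.24, Vegfc 0.08, Maf 0.27 and Stab2 0.28, and none of these passed.

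Markers of other cells were read beside these. Among all 22180 genes 52.9% had a positive change, 0.604% were called higher and 0.248% lower. Of 12 cardiac muscle and endocardial genes 11 were positive, with 0 called and a per-embryo median of −0.063 to 0.046 in controls and 0.071 to 0.241 in mutants. Npr3, which endocardium carries, had a log2 change of 0.34 and Tnnt2 of 0.32. Endocardium shares many genes of the 39, and its part in the endothelial values was not tested. All 10 smooth muscle genes were negative, against 10452 of all 22180 genes, with a median log2 change of −0.12. Their per-embryo medians were −0.036 to 0.085 in controls and −0.287 to −0.063 in mutants. Cnn1, the gene of calponin, fell by 0.46 on the log2 scale (limma, Benjamini-Hochberg adjusted p = 0.0366), and lost the call without control 1 or 2 or mutant 1, 3 or 4, the Benjamini-Hochberg adjusted p from limma being up to 0.0928, and with littermates averaged (0.0512). The call was also lost without litter 1, 3 or 4, and Cnn1 passed in 14 of 26 alternatives. Actg2 had −0.41.

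Among 11 pericyte genes 8 were positive, against 52.9% of all genes, and 0 passed, with Rgs5 and Abcc9 at −0.18 and 0.18. Among 13 mesenchymal genes 8 were positive and 0 passed, with Col1a1 and Pdgfra at 0.25 and 0.21. Leukocyte genes were positive in 15 of 19, with a median of 0.05. Lyz2 had 0.26 and Aif1, below background at a mean of 6.65, had 0.13. Erythroid genes were positive in 6 of 13, with Sptb and Slc4a1 at 0.15 and −0.10, and 0 genes of either list passed. Within the epithelial list 0 passed, Krt19 had 0.50 and Shh −0.28, mutants lay wholly below controls in 5 of 15 genes, among them Epcam at −0.26, against 3.60% of all genes, and the per-embryo medians were −0.094 to 0.079 in controls and −0.107 to −0.029 in mutants.

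Hypoxia genes, which include VEGF and adrenomedullin, also differed between the control litters. Litter 2 lay above litter 1 in 11 of 14 genes, with a median difference of 0.270, and their per-embryo medians were −0.159, −0.048, 0.133 and 0.129 in controls 1 to 4 and 0.057, 0.103, −0.00057 and −0.017 in mutants 1 to 4. Epithelial genes were higher in litter 2 in 14 of 15, with a median difference of 0.188. Of all genes 52.7% were higher in litter 2, with a median difference of 0.0086. Between genotypes 9 of 14 hypoxia genes were positive, against 52.9% of all genes, and 0 passed. Ddit4 had 0.20 and Adm, the gene of adrenomedullin, had 0.21 but lay below background, at a mean of 6.34.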

How the data were processed

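Per the submitters' processing notes, the deposited values are log2 expression made by the authors with RMA in the package oligo. The sources used here name neither versions nor options. Of 41345 probe sets, 23521 had 1 symbol in the platform annotation, 1814 several and 16010 were not listed there. The probe set with the highest mean represented each of 22180 genes.

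A linear model with genotype, litter as a random block (correlation 0.153) and empirical Bayes moderation was fitted to all genes with limma 3.58.1 in R 4.3.3, two-sided, with Benjamini-Hochberg adjustment and a threshold of 0.05. The fit was tested on simulated data. No set test was run. Arrays give no counts, so their number, 4 per group, and the number of litters limit the precision. Controls came from litters 1 and 2 only and mutants from litters 3 and 4 only. The 4 embryos of a group are therefore not fully independent. RMA hides a change shared by most genes and draws dim genes towards 0.

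The members and lists were chosen with earlier results of these data known. In full are given the 3 pan-endothelial genes with the largest changes and every gene of the smaller classes, and of each other list the 2 largest changes and every gene that passed; further values were chosen after they were seen. The endothelial genes themselves were left out of the other lists. Those lists share some genes with each other, so their counts are not independent. Alternatives covered litters, single embryos, sex, dim genes, scaling, probe sets and the variance prior. Plots used matplotlib 3.10.9 under Python 3.11.15.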

Additional observations from a re-analysis of the deposited data

Results flagged for a closer look

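In 4 of 78 groups of 4 embryos, 39 genes in each genotype, 1 embryo stood far from the other 3, and chance alone sets apart about 1 group in 20, or 3.9 here. For Robo4 mutant 4 was highest among mutants, at a log2 value of 9.07 against 8.98 for the others, as it was for Ednrb, at 11.52 against 11.41 to 11.42. Mutant 3 was highest among mutants for Efnb2, at 10.12 (10.125 before rounding) against 10.05 to 10.06, and for Ephb4, at 10.36 (10.355) against 10.30 to 10.31.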

How the results depend on the processing

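The count of 0 endothelial genes past the threshold by limma held in 25 of 26 alternatives in the higher direction, and in all 26 in the lower; the Xist level as a covariate gave 1 higher, Vwf. At an unadjusted p under 0.05 the counts were 7 higher and 1 lower, and 1 to 11 and 0 to 3 over the alternatives. Over all genes 134 were called higher and 55 lower, with 65 to 361 and 23 to 313 over the alternatives. Without litter 1 the median log2 change was −0.0076 over the 39 genes and 0.0013 over the pan-endothelial class, and without litter 2 the latter was 0.120. With only embryos of high Xist level, chosen after seeing the data, these medians were −0.012 and 0.015, and the arterial one −0.056. With dim genes, and so Car4, left out, the capillary median was −0.073. For the venous and lymphatic classes the medians moved by less than the SD between embryos. With each array centred on its median, 27 of 39 genes were positive. In 22 of the 39 genes the sign was the same in every setting. Settings that changed only the litter model, the variance prior or the choice of probe set left the changes of these genes as they were. Those settings could not move a sign. With the embryo number as a replicate block 0 endothelial genes passed and the median was 0.067; same-numbered embryos correlated at −0.27 to 0.03 and share only a number. That replicate block ended the calls of Jag2 and Cnn1 (limma, adjusted p = 0.0698 and 0.0764). The numbers of arrays and of litters limit what small changes can be seen.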
